A study of Mus musculus with 8 samples.

Results

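The TAM receptors Axl, Mertk and Tyro3, their bridging ligands Gas6, Pros1 and Mfge8, and the engulfment receptors Stab1, Timd4, Itgav and Lrp1 were followed by gene name in a table of read counts. They make up 10 of the 55450 genes of the table, and all 10 were found. The table holds 8 RNA-seq libraries of mouse neutrophils in 4 groups of 2, sorted by the surface protein CD71 (the transferrin receptor) with flow cytometry. Tumour CD71+ and tumour CD71- neutrophils came from brain tumours of SB28, a mouse glioma cell line. Culture CD71+ and culture CD71- neutrophils were generated in vitro, with naive bone marrow given as their tissue. No genotype, treatment, time or age is given, and groups are called by their sort labels throughout.

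Cells that die by apoptosis expose phosphatidylserine on their outer membrane, and phagocytes find it either directly or through a soluble bridge. Axl, Mertk and Tyro3 are receptor tyrosine kinases whose bridges are Gas6 and protein S (the product of Pros1), vitamin K-dependent proteins that bind phosphatidylserine at one end and the receptor at the other. Mfge8 links phosphatidylserine to integrins that contain the αV chain encoded by Itgav, stabilin-1 (Stab1) and TIM-4 (Timd4) bind the lipid themselves, and Lrp1 is a large endocytic receptor that acts with calreticulin. In the brain, Mertk and Axl are best known from microglia and macrophages, which clear dying cells there.

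On mm10 with the GENCODE M21 annotation, Axl (ENSMUSG00000002602.16) lies on chromosome 7 from 25757273 to 25788705, Mertk (ENSMUSG00000014361.5) on chromosome 2 from 128698956 to 128802894 and Tyro3 (ENSMUSG00000027298.17) on chromosome 2 from 119797733 to 119818104. Gas6 (ENSMUSG00000031451.6) lies on chromosome 8 from 13465374 to 13494490, Pros1 (ENSMUSG00000022912.8) on chromosome 16 from 62854307 to 62929346 and Mfge8 (ENSMUSG00000030605.15) on chromosome 7 from 79133768 to 79149060. Stab1 (ENSMUSG00000042286.13) is on chromosome 14 from 31139013 to 31168641, Timd4 (ENSMUSG00000055546.6) on chromosome 11 from 46810800 to 46844332, Itgav (ENSMUSG00000027087.11) on chromosome 2 from 83724397 to 83806916 and Lrp1 (ENSMUSG00000040249.15) on chromosome 10 from 127538161 to 127621148. Exons of Gas6, Itgav and Stab1 share 34, 634 and 112 bases with Tmem255b, Gm13684 and Nt5dc2 on the opposite strand, at most 5.9% of the exon bases of each, and for the counting the strand setting is not given in the sources used here.

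Upstream sequences of 2 receptors and 2 ligands are shown because their levels parted in culture, as described below. Each is the 250 bases before the RefSeq start on GRCm38.p6, 5′ to 3′ along the gene, at chr7:25788734-25788983 on the minus strand for Axl, chr2:128698665-128698914 on the plus strand for Mertk, chr8:13494536-13494785 on the minus strand for Gas6 and chr16:62854057-62854306 on the plus strand for Pros1. Capitals mark matches, on either strand, to any of 5 short motifs: AP-1 (TGANTCA), the PU.1 core (GAGGAA), 2 forms of the hypoxia response element (ACGTG and GCGTG) and the GC box (GGGCGG).
Axl: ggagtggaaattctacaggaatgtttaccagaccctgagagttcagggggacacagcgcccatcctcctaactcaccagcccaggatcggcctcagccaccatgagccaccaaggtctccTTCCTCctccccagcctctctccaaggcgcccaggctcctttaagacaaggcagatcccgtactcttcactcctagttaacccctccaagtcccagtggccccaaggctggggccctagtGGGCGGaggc
Mertk: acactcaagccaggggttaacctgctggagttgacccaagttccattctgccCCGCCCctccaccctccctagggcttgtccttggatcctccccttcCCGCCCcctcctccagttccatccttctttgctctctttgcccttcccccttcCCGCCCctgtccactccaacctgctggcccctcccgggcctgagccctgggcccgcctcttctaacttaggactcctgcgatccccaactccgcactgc
Gas6: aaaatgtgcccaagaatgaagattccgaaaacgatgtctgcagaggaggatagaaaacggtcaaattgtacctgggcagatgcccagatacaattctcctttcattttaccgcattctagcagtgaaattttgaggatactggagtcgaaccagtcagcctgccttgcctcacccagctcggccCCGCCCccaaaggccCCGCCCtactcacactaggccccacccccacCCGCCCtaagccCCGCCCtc
Pros1: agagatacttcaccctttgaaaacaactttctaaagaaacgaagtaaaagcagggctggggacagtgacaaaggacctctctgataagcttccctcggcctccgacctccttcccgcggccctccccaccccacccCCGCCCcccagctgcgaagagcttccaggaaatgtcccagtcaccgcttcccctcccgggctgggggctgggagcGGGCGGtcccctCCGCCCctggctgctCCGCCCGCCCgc
The GC box had 1 match in the Axl sequence, 3 in Mertk, 4 in Gas6 and 5 in Pros1, where neighbouring matches overlap. The PU.1 core matched once in Axl and in none of the other 3. Over the same window of all 10 genes, the GC box was present in 7 and in 32.7% of 32851 mouse promoters, the PU.1 core in 4 and in 23.3%, and GCGTG in 2 and in 28.2%. AP-1 and ACGTG matched none of the 10, against 6.75% and 16.6% of all promoters. These are matches of letters only.

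Total counts ran from 9598959 to 22615813 per library, and TMM scaling (edgeR's trimmed mean of M-values) was used for the levels given here as CPM, which are counts scaled to library size. Mitochondrial transcripts took at most 2.17% of the counts in 6 libraries, against 7.09% and 12% in those of the culture CD71- group. In tumour CD71+ against CD71- libraries Tfrc, the gene of the sort marker, was at -0.65 on the log2 scale (SE 0.19; adjusted p = 0.0134 by edgeR's quasi-likelihood test), against the direction of the label, and at 0.03 in culture (adjusted p = 0.94). The tumour value was -0.08 with libraries scaled by total counts (adjusted p = 0.765), and leaving out replicate 1 of tumour CD71- or either replicate of tumour CD71+ ended its call as well (adjusted p from 0.0518 to 0.0701). Scaled on mature neutrophil genes, the direction turned to that of the label, with Tfrc at 0.40 in the tumour (adjusted p = 0.12) and at 1.11 in culture (adjusted p = 0.00015). All 25 mature neutrophil markers had counts in every group, and their summed level was 18900 to 19800 CPM in tumour CD71+, 39100 to 41100 in tumour CD71-, 4780 to 6000 in culture CD71+ and 10900 to 11400 in culture CD71- libraries. In tumour CD71- libraries the sum was led by Hdc, Mxd1 and Csf3r, at means of 10100, 7870 and 5560 CPM. In culture CD71- libraries these averaged 16.2, 717 and 1660 CPM. Other markers went the other way, such as Ly6g (11.7 in tumour and 69.2 CPM in culture CD71-) and Ngp (55.8 and 591 CPM). Of the 25, 15 were called higher and 5 lower in tumour than in culture CD71- libraries.

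Markers of other phagocytes moved with the sort label in the tumour. The summed level of 20 macrophage and monocyte markers was 4700 to 5120 CPM in tumour CD71+ and 1250 to 1280 CPM in tumour CD71- libraries, with Marco at 0 counts in both groups. In culture it was 2160 to 2690 CPM in CD71+ and 1530 to 1580 CPM in CD71- libraries, where C1qa, Cd163 and Marco were at 0. The summed level of 10 microglia markers was 1120 to 1600 CPM in tumour CD71+ and 115 to 150 CPM in tumour CD71- libraries. In culture it was 131 to 162 CPM in CD71+ and 71.7 to 73.6 CPM in CD71- libraries, and the defining microglia genes Sall1 and Siglech had no counts in any culture library. In bulk libraries, fewer cells of a type and less RNA per cell cannot be told apart, and the part of these other cells in the results below was not tested.

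In the tumour, 8 of the 9 tested genes were higher in CD71+ than in CD71- neutrophils, and Itgav was not called. Of all 15975 genes tested, 43.5% passed in either direction and 26.2% passed as higher. The median log2 fold change of the 9 was 2.91, against 0.13 over all tested genes. The groups of all 9 did not overlap, which held for 72.5% of all genes. All 3 TAM receptors, all 3 ligands, Stab1 and Lrp1 rose, by 1.75 to 4.16 on the log2 scale. Timd4 did not reach the count filter and was not tested.

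Axl encodes the TAM receptor that binds Gas6 most tightly. It was measured at 168 and 156 CPM in tumour CD71+, 18.8 and 11.9 CPM in tumour CD71-, 20.1 and 18.3 CPM in culture CD71+ and 1.01 and 1.63 CPM in culture CD71- libraries. Tumour CD71+ libraries were highest and culture CD71- libraries lowest, while tumour CD71- and culture CD71+ libraries overlapped. The log2 fold change of CD71+ over CD71- was 3.40 in the tumour (SE 0.24, adjusted p = 6.7e-07) and 3.91 in culture (SE 0.29, adjusted p = 3.8e-06). The difference between these effects was -0.51 (SE 0.37, adjusted p = 0.379) and did not pass. Axl ranked 586 among all tested genes by its rise in the tumour and 112 in culture.

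Mertk encodes a main receptor of phagocytes for the uptake of apoptotic cells. It stood at 110 and 231 CPM in tumour CD71+, 9.35 and 9.70 CPM in tumour CD71-, 17.4 and 15.4 CPM in culture CD71+ and 2.13 and 0.816 CPM in culture CD71- libraries. No 2 neighbouring groups overlapped, and the order was the same as for Axl. Mertk rose by 4.16 in tumour CD71+ libraries (SE 0.38, adjusted p = 2.6e-05) and by 3.38 in culture CD71+ libraries (SE 0.43, adjusted p = 0.00051). The difference of 0.78 between these effects did not pass (SE 0.58, adjusted p = 0.399). Its rank by rise was 281 in the tumour and 195 in culture. The 2 tumour CD71+ libraries differed by more than those of any other group in CPM, and without replicate 2 the tumour log2 fold change was 3.51, while without culture CD71- replicate 1 the culture value was 4.34. The summed microglia markers were also higher in tumour CD71+ replicate 2, at 1600 CPM, than in replicate 1, at 1120 CPM; the part of this in the level of Mertk was not tested.

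Per length of exon, Mertk and Axl were close to each other in both culture CD71+ libraries, while in tumour CD71+ libraries their ratio differed between the replicates. The Mertk to Axl ratio of reads per kilobase was 0.758 (95% exact binomial interval 0.703 to 0.817) and 1.72 (1.61 to 1.83) in tumour CD71+ libraries and 0.576 (0.423 to 0.778) and 0.945 (0.679 to 1.31) in tumour CD71- libraries. In culture CD71+ libraries it was 1.01 (0.898 to 1.13) and 0.975 (0.858 to 1.11), and in culture CD71- libraries 2.46 (1.35 to 4.67) and 0.58 (0.23 to 1.36). The intervals cover counting error only. In the tumour CD71+ pair they lay on both sides of 1. Those of the replicates overlapped in tumour CD71- and in culture CD71- libraries. The interval of culture CD71- replicate 2, from 9 Mertk and 18 Axl counts, included 1.

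Tyro3, the TAM receptor best known from neurons, was close to the limit of detection. Its counts were 21 and 12 in tumour CD71+, 1 and 2 in tumour CD71-, 8 and 5 in culture CD71+ and 1 and 0 in culture CD71- libraries. It took at most 1.36% of the summed level per length (reads per kilobase, scaled to depth as RPKM) of the TAM receptors in any library. From the counts, tumour CD71+ libraries held 7.52 times the Tyro3 level of tumour CD71- libraries (95% interval 2.36 to 38.3, counting error only), and the log2 fold change of 2.87 passed (adjusted p = 0.0239). That call was lost by DESeq2's Wald test (adjusted p = 0.0983), and without either replicate of tumour CD71-, either replicate of culture CD71+, or replicate 1 of tumour CD71+ (adjusted p from 0.0848 to 0.21). In culture the ratio was 5.88 (0.883 to 250), and the rise was not called (adjusted p = 0.237).

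**Figure D1:**
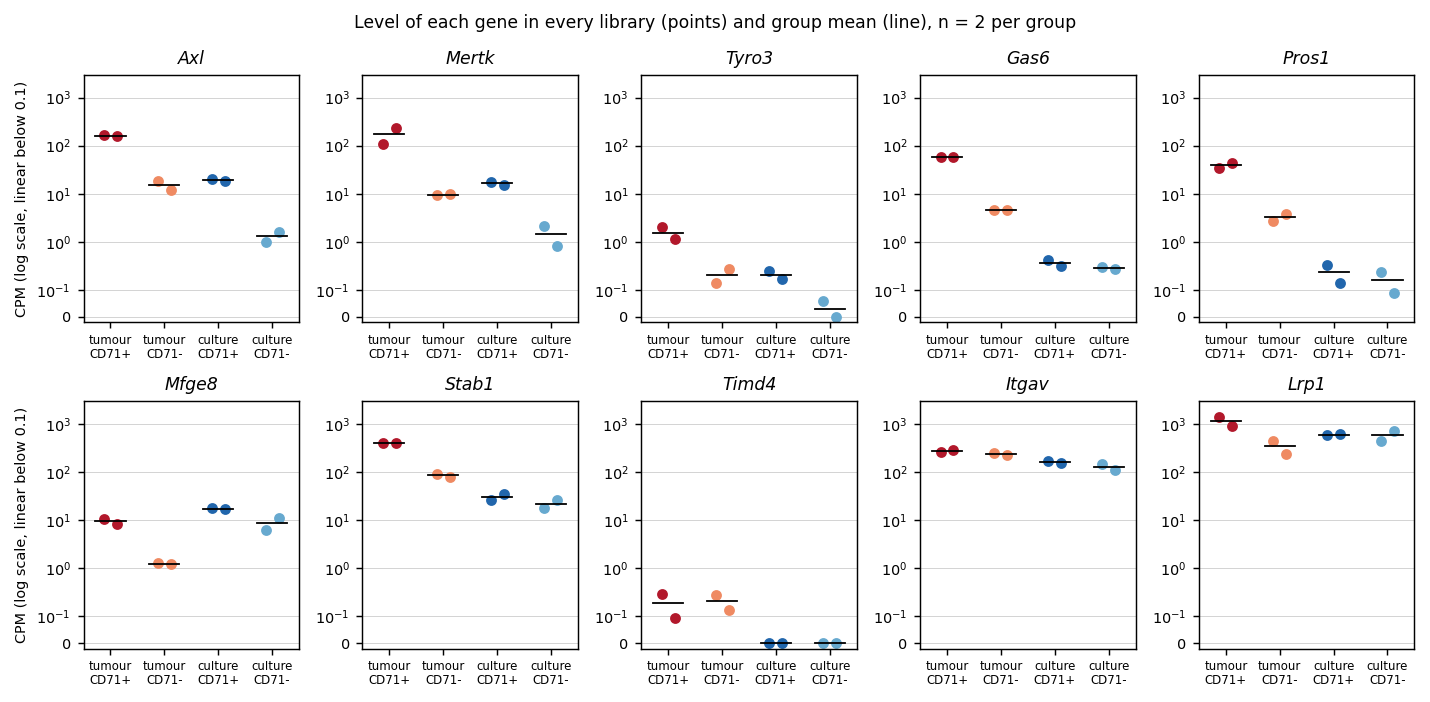
Level of each of the 10 genes in CPM (vertical axis, logarithmic and linear below 0.1) in the 2 libraries of each group (points), with the group mean (line). Axl and Mertk are higher in CD71+ libraries of both origins, while Gas6 and Pros1 stay below 0.5 CPM in all culture libraries.

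The ligands Gas6 and Pros1 were higher in CD71+ libraries of the tumour and near the limit of detection in culture. Gas6, the ligand of all 3 TAM receptors, was at 56.9 and 58.3 CPM in tumour CD71+, 4.61 and 4.57 CPM in tumour CD71-, 0.427 and 0.311 CPM in culture CD71+ and 0.296 and 0.272 CPM in culture CD71- libraries. The culture values rest on 14, 9, 5 and 3 counts. Gas6 rose by 3.65 in tumour CD71+ libraries (SE 0.26, adjusted p = 6.7e-07), against 0.37 in culture (SE 0.48, adjusted p = 0.7). The difference between the effects was 3.28 (SE 0.63, adjusted p = 0.00424), and it passed without each library in turn.

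Pros1, whose product protein S is also an anticoagulant, followed the same order of groups. It was at 34.0 and 43.7 CPM in tumour CD71+, 2.79 and 3.88 CPM in tumour CD71-, 0.335 and 0.138 CPM in culture CD71+ and 0.237 and 0.0906 CPM in culture CD71- libraries. The 2 culture groups overlapped, with 11, 4, 4 and 1 counts, and the tumour groups did not. In the tumour Pros1 rose by 3.54 (SE 0.35, adjusted p = 8.1e-06), while in culture its log2 fold change was 0.43 (SE 0.72, adjusted p = 0.739). The difference of 3.11 passed (SE 0.95, adjusted p = 0.0398), but not with DESeq2 size factors (adjusted p = 0.05), and not without replicate 1 of culture CD71- (2.17), either replicate of tumour CD71-, or replicate 2 of either CD71+ group (adjusted p from 0.0772 to 0.464). Without culture CD71+ replicate 1 it was 3.86 and still passed.

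Mfge8, the bridge to αV integrins, had a different order. It was at 10.7 and 8.28 CPM in tumour CD71+, 1.26 and 1.25 CPM in tumour CD71-, 18.2 and 16.7 CPM in culture CD71+ and 6.16 and 11.1 CPM in culture CD71- libraries. The tumour CD71- values rest on 9 counts in each library. Culture CD71+ libraries were highest and tumour CD71- libraries lowest, and tumour CD71+ overlapped culture CD71- libraries. It rose in tumour CD71+ libraries by 2.91 (SE 0.41, adjusted p = 0.00014) and in culture CD71+ libraries by 1.03 (SE 0.30, adjusted p = 0.0306). The culture call was lost with only the 4 culture libraries in the fit (adjusted p = 0.0644), and without replicate 1 of culture CD71-, either replicate of culture CD71+ or either replicate of tumour CD71- (adjusted p from 0.0597 to 0.228). The difference between the effects was 1.88 (SE 0.52, adjusted p = 0.0259), and it did not pass without replicate 2 of culture CD71-, replicate 1 of tumour CD71+, or any of the culture CD71+ and tumour CD71- libraries (adjusted p from 0.0599 to 0.139).

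Per length, Gas6 was the most abundant ligand transcript in each tumour library and Mfge8 in each culture library. Of the summed RPKM of the 3 ligands, Gas6 took 59.6% to 67.9% in the 4 tumour libraries and 3.29% to 7.82% in the 4 culture libraries. Pros1 took 24.8% to 31.5% in tumour and 0.892% to 3.9% in culture libraries. Mfge8 took 5% to 9.7% in tumour and 88.3% to 95.8% in culture libraries. Within the tumour, CD71+ and CD71- libraries overlapped in the shares of Gas6 and Pros1. The Mfge8 share was 5% and 6.91% in CD71+ and 8.83% and 9.7% in CD71- libraries. The CD71- shares rest on 9 Mfge8 counts in each library, among 62 and 70 counts of the 3 ligands. Whether this difference in share exceeds counting error was not tested.

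**Figure D2:**
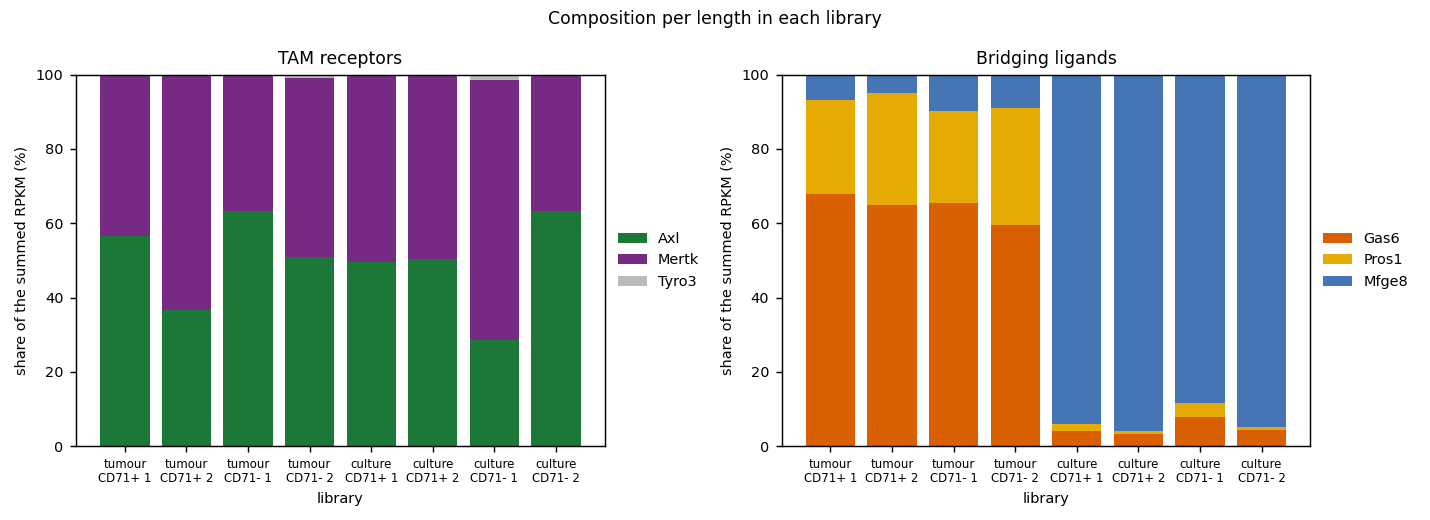
Share of the summed RPKM (vertical axis, percent) of the 3 TAM receptors (left) and the 3 bridging ligands (right) in each of the 8 libraries. Gas6 and Pros1 fill most of the ligand bars in the tumour and Mfge8 88.3% or more in culture, while Tyro3 is barely visible beside Axl and Mertk.

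Stab1 encodes stabilin-1, a scavenger receptor of macrophages and sinusoidal endothelium. It was at 397 and 393 CPM in tumour CD71+, 92.7 and 79.7 CPM in tumour CD71-, 26.7 and 34.2 CPM in culture CD71+ and 18.1 and 25.7 CPM in culture CD71- libraries. No 2 neighbouring groups overlapped. Stab1 rose by 2.20 in tumour CD71+ libraries (SE 0.20, adjusted p = 4.5e-06), against 0.48 in culture (SE 0.20, adjusted p = 0.119). The culture value passed without culture CD71- replicate 2 (0.75, adjusted p = 0.0219) and with libraries scaled by total counts (0.80, adjusted p = 0.0115). The difference between the effects was 1.72 (SE 0.28, adjusted p = 0.0018).

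Lrp1 had the highest mean level per length of the 10 genes in every group except tumour CD71-, where Itgav did, and it overlapped Mertk in tumour CD71+ and Itgav in tumour CD71- libraries. Its level was 1380 and 911 CPM in tumour CD71+, 441 and 239 CPM in tumour CD71-, 590 and 608 CPM in culture CD71+ and 436 and 721 CPM in culture CD71- libraries. Only the tumour CD71+ libraries stood apart from all others. Lrp1 rose by 1.75 in tumour CD71+ libraries (SE 0.32, adjusted p = 0.00162), while in culture its log2 fold change was 0.05 (SE 0.31, adjusted p = 0.947). The difference of 1.70 passed (SE 0.44, adjusted p = 0.0277), but not scaled on mature neutrophil genes (adjusted p = 0.0558), nor without replicate 2 of either CD71- group, either replicate of culture CD71+, or replicate 1 of tumour CD71+ (adjusted p from 0.0689 to 0.123).

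Itgav, the αV integrin chain, was not called between the sort fractions of either origin. It stood at 256 and 281 CPM in tumour CD71+, 244 and 220 CPM in tumour CD71-, 171 and 157 CPM in culture CD71+ and 149 and 109 CPM in culture CD71- libraries. The log2 fold change of CD71+ over CD71- was 0.21 in the tumour (SE 0.18, adjusted p = 0.351) and 0.34 in culture (SE 0.18, adjusted p = 0.214), and neither passed. Scaled by total counts both passed, at 0.78 (adjusted p = 0.00425) and 0.64 (adjusted p = 0.0292), and with DESeq2 size factors the tumour value was -0.01. The culture value also passed without culture CD71- replicate 1 (0.60, adjusted p = 0.03).

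Timd4, a receptor of resident macrophages, had 3 and 1 counts in tumour CD71+, 2 and 1 in tumour CD71- and 0 in all 4 culture libraries. Tumour CD71+ and CD71- libraries overlapped. A count of 0 allows up to 3 counts, or 0.0915 to 0.104 CPM in culture CD71+ and 0.178 to 0.272 CPM in culture CD71- libraries. The mean of Timd4 in tumour CD71+ libraries was 1.96-fold that limit in culture CD71+ libraries. Any difference rests on 3 and 1 counts, whose own counting error is not in this value. Tumour CD71+ replicate 2, at 0.0941 CPM, lay below the limit of 0.104 CPM in culture CD71+ replicate 2. In the CD71- fraction a difference from culture was not detectable at this depth.

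In culture, 3 of the 9 tested genes passed, Axl, Mertk and Mfge8, all as higher in CD71+ libraries. Over all genes 16.2% passed, 7.88% as higher and 8.36% as lower. The number called in culture depended on the scaling. More of the 9 passed with total counts and when scaled on mature neutrophil genes. Over all genes, the number called as higher was 1259 with TMM, 2617 with total counts and 10485 scaled on mature neutrophil genes. The groups did not overlap for 7 of the 9, against 60.8% of all genes. The median log2 fold change was 0.48 for the 9 and 0.03 for all tested genes. The difference between the tumour and culture effects of CD71 passed for Gas6, Pros1, Mfge8, Stab1 and Lrp1, 5 of 9, all with the larger rise in the tumour. Over all genes 15.5% passed this test, 10.8% with a positive and 4.71% with a negative difference. None of the 3 TAM receptors passed it. Of the microglia and macrophage markers, 10 of 10 and 15 of 18 tested rose in tumour CD71+ libraries (medians 3.58 and 2.89), against 4 of 10 and 11 of 18 in culture CD71+ libraries (medians 0.87 and 0.92). Of the 10 microglia markers 3 were at 0 counts in culture CD71- libraries and did not exceed the limit of 3 counts in culture CD71+ libraries, and with their log2 fold changes set to 0 the culture median was 0.51. Of these, Sall1 and Siglech were at 0 in all culture libraries and could not rise there. The part of the markers in the difference was not tested.

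**Figure D3:**
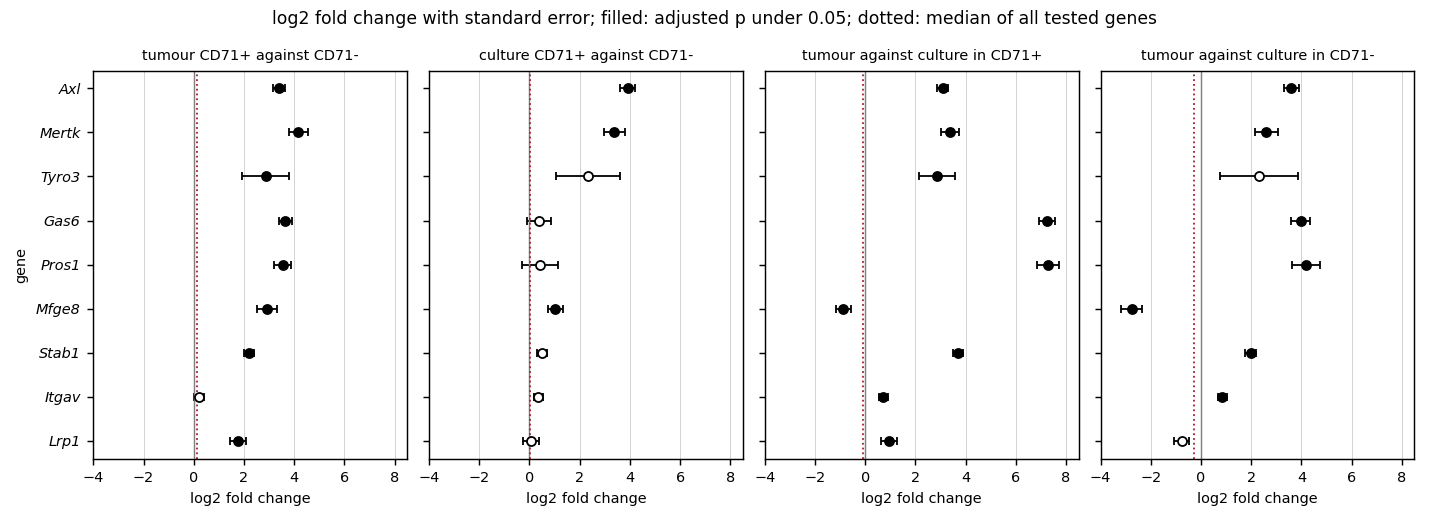
log2 fold change (horizontal axis, points) with its standard error (bars) of the 9 tested genes in the 4 comparisons between groups, with filled points for an adjusted p under 0.05 and a dotted line at the median of all tested genes. Axl and Mertk lie above 3 for CD71+ over CD71- in both origins, and Gas6 and Pros1 lie above 7 for tumour over culture in CD71+ libraries.

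**Figure D4:**
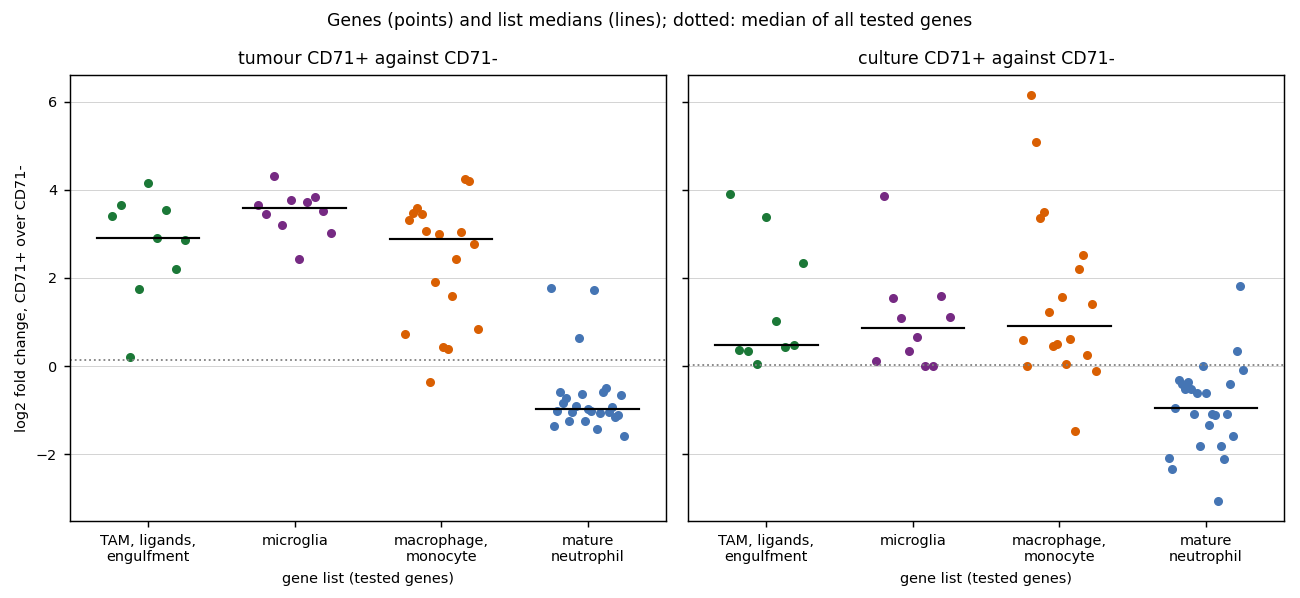
log2 fold change of CD71+ over CD71- (vertical axis) of each tested gene (points) in the tumour (left) and in culture (right), with list medians (lines) and the median of all tested genes (dotted). In the tumour the median of the TAM, ligand and engulfment genes, 2.91, lies by those of the macrophage and microglia markers, 2.89 and 3.58, and that of the mature neutrophil markers at -0.97; fitted values of genes with no counts in a group depend on the prior count.

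Between the origins, tumour CD71+ libraries were set against culture CD71+ libraries, and all 9 tested genes passed, 8 as higher and Mfge8 as lower. Over all genes 57.9% passed, 30.3% as higher and 27.6% as lower, and 82.5% did not overlap between the groups, as all 9 did not. Gas6 and Pros1 had log2 fold changes of 7.25 and 7.28 (SE 0.31 and 0.42, adjusted p = 3.5e-10 and 5.2e-09), and without culture CD71+ replicate 1 that of Pros1 was 8.0. Stab1 rose by 3.70, Mertk by 3.38 and Axl by 3.08 (adjusted p = 5.5e-09, 1.1e-05 and 5.6e-08), and without tumour CD71+ replicate 2 Mertk was at 2.69. Tyro3 rose by 2.86 (adjusted p = 0.00406), a call lost without culture CD71+ replicate 1 or 2 (adjusted p = 0.0954 and 0.133) and when scaled on mature neutrophil genes (adjusted p = 0.22).

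In the same comparison, the calls of Mfge8, Lrp1 and Itgav depended on single libraries or, for Lrp1 and Itgav, also on the scaling. Mfge8 was lower in tumour CD71+ libraries, at -0.88 on the log2 scale (SE 0.30, adjusted p = 0.0218), lost without either replicate of culture CD71+ or replicate 2 of tumour CD71+ (adjusted p from 0.0671 to 0.113). Lrp1 and Itgav were higher by 0.94 and 0.71 (adjusted p = 0.025 and 0.00344), but their values were 0.25 and 0.04 with total counts and -0.93 and -1.14 when scaled on mature neutrophil genes. Leaving out either replicate of culture CD71+ or replicate 1 of tumour CD71+ ended the call of Lrp1 (adjusted p from 0.112 to 0.181), and leaving out culture CD71+ replicate 2 that of Itgav (adjusted p = 0.0553).

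In CD71- libraries, tumour against culture, 7 of the 9 genes passed, 6 as higher and 1 as lower, against 67.1% of all genes (30.3% as higher and 36.8% as lower). The groups did not overlap for 8 of the 9, against 82.7% of all genes. Pros1 rose by 4.17, Gas6 by 3.97, Axl by 3.59, Mertk by 2.60, Stab1 by 1.98 and Itgav by 0.84 (adjusted p from 1.5e-07 to 0.00087). Without culture CD71- replicate 1, Pros1 was at 5.07 and Mertk at 3.52. Mfge8 was lower in tumour CD71- libraries, at -2.76 (SE 0.41, adjusted p = 4.1e-05). Lrp1 was at -0.77 (adjusted p = 0.0502) and Tyro3 was not called. The mature neutrophil genes were themselves higher in tumour libraries by a median of 1.30. Scaling on their summed counts gave a median shift of -1.83 over all genes relative to TMM. So scaled, Mertk (0.78, adjusted p = 0.116) and Stab1 (0.14, adjusted p = 0.612) no longer passed. Itgav turned to -0.99, as it did to -0.09 with total counts. Lrp1 passed as lower with total counts (-1.70), with mature neutrophil scaling (-2.61), with no filter (-0.86) and with a stricter filter (adjusted p = 0.0496), and without replicate 1 of either CD71- group or either replicate of tumour CD71+ (adjusted p from 0.0157 to 0.0337).

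**Figure D5:**
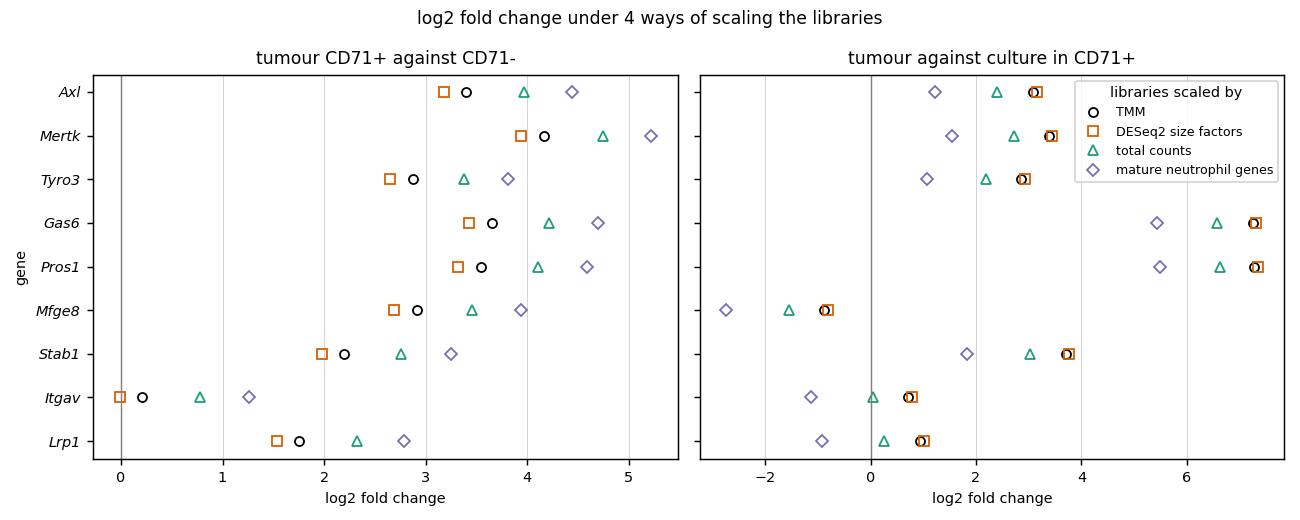
log2 fold change (horizontal axis) of the 9 tested genes with libraries scaled by TMM, DESeq2 size factors, total counts or mature neutrophil genes, for tumour CD71+ over CD71- (left) and tumour over culture in CD71+ libraries (right). On the left all 4 scalings keep 8 genes above 1, and Itgav ranges from -0.01 to 1.26; on the right Itgav and Lrp1 lie below 0 when scaled on mature neutrophil genes.

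The genes nearest in pattern to each TAM receptor were found by the root mean square difference of centred log2 CPM (with 0.5 CPM added) over the 8 libraries, among 9768 other genes with a mean of at least 5 CPM. Nearest to Axl were Pld4 at 0.29, Irf8 at 0.37 and Fcrls at 0.40. Pld4 had mean levels of 146, 15.6, 17.7 and 2.06 CPM in tumour CD71+, tumour CD71-, culture CD71+ and culture CD71- libraries, beside 162, 15.4, 19.2 and 1.32 CPM for Axl. Irf8 is a transcription factor of the monocyte lineage and is on the dendritic cell list, and Fcrls is on the microglia list. Nearest to Mertk were Frmd4b at 0.48, Pld4 at 0.51 and Fcrls at 0.55. Tyro3 was nearest to Bpnt1, Smad1 and Adora2a at 0.18 to 0.25, but with so few counts the added 0.5 CPM flattens its pattern. Among the 9 tested genes themselves the nearest pair was Gas6 and Pros1 at 0.21, followed by Tyro3 and Itgav at 0.53 and by Axl and Mertk at 0.57, and the farthest was Gas6 and Mfge8 at 3.03. Gas6 and Pros1 lay below the added 0.5 CPM in all culture libraries, which flattens that part of their patterns. Distances that involve Gas6, Pros1 or Tyro3 therefore rest partly on the added value. The libraries of a comparison are shared by all these genes, so the distances are a description.

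Other genes of apoptotic cell uptake were not all higher in tumour CD71+ libraries. Of 22 other receptors and bridges, 19 were tested, 10 rose and 5 fell, with a median of 0.65, while 26.2% of all genes rose and 17.3% fell. The complement bridge genes C1qb (3.59, adjusted p = 4e-07) and C1qa (3.47, adjusted p = 7.9e-07) had the largest named rises and are also on the macrophage marker list. C1qa averaged 445 ± 49 CPM in tumour CD71+ and 40.3 ± 9.03 CPM in tumour CD71- libraries (SD, n = 2 each). Cd300lf, a phosphatidylserine receptor of myeloid cells, fell to 2070 ± 53.4 CPM in tumour CD71+, against 4700 ± 301 CPM in tumour CD71- libraries (adjusted p = 0.00018), and its relative Cd300lb fell by 1.31.

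Of the 17 tested engulfment signalling genes, which link the receptors to actin, 6 rose and 9 fell in tumour CD71+ libraries, with a median of -0.49. Over all genes 26.2% rose and 17.3% fell there. Dock1, the exchange factor that activates Rac with ELMO proteins, rose by 2.95 (adjusted p = 1.3e-06), and Ptk2, the focal adhesion kinase, by 2.49. Dock2, the form of this factor in leukocytes, fell by 0.75 and the GTPase gene Rhog by 0.85. With total counts Dock2 was at -0.18 and Rhog at -0.29, and neither passed (adjusted p = 0.462 and 0.216). Dock1 averaged 39.2 ± 4.17 CPM in tumour CD71+ and 5.08 ± 0.716 CPM in tumour CD71- libraries, and 116 ± 10.4 CPM in culture CD71+ and 80.9 ± 15.5 CPM in culture CD71- libraries, so that it was lower in the tumour within both sort fractions (-1.56 in CD71+ and -3.99 in CD71-, adjusted p = 9.6e-06 and 4.3e-09).

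Of 17 tested genes for find-me, eat-me and do-not-eat-me signals 4 rose and 6 fell (median -0.10), among them Cx3cr1 (3.65), the receptor for the find-me chemokine fractalkine and a microglia marker, and Atp11a (-1.36), a flippase that keeps phosphatidylserine inside. In the same comparison 26.2% of all genes rose and 17.3% fell. Of 15 genes of phagosome maturation and LC3-associated phagocytosis 4 rose and 8 fell (median -0.59), with Rubcn (1.80), which encodes Rubicon, and Atg16l1 (-1.05), a factor in LC3 conjugation. Dnase2a, the lysosomal nuclease, rose by 1.01, but it shares 29.99% of its exon bases with Mast1 on the opposite strand, and the rise was lost without tumour CD71- replicate 1 or 2 (adjusted p = 0.172 and 0.0667).

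Of 12 tested nuclear receptor and cholesterol genes, which respond to the lipid load of engulfed cells, 1 rose and 5 fell (median -0.37). Apoe, the lipid carrier, rose by 3.31 (adjusted p = 4e-07) and is also on the macrophage marker list, and Ppard fell by 1.11. Of 13 tested genes of TAM ligand maturation, shedding and feedback 3 rose and 4 fell (median -0.30). Beside both lists, 26.2% of all genes rose and 17.3% fell. Ggcx, the vitamin K-dependent carboxylase that modifies Gas6 and protein S, averaged 5.18 ± 0.526 CPM in tumour CD71+ and 1.25 ± 0.00672 CPM in tumour CD71- libraries (2.04, adjusted p = 0.0009). Lrpap1, the chaperone of Lrp1, rose by 1.86 (adjusted p = 1e-05), and Stat3 and Ifnar1, which take part in the TAM feedback on cytokine signals, fell by 0.99 and 0.85. The fall of Ifnar1 did not pass with total counts (-0.29, adjusted p = 0.197).

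The largest changes of each list, 11 rises and 12 falls in the tumour, were followed through the alternatives. All 11 rises passed under each of the 4 scalings, and of the 12 falls 7 passed with total counts and 0 when scaled on mature neutrophil genes, whose own median was -0.97. The 5 falls lost with total counts were those of Rhog, Dock2, Atg7, Nr1h2 and Ifnar1. In culture, 8 of the 19 tested other receptors and bridges rose and 2 fell, and of the 17 tested engulfment signalling genes 0 rose and 4 fell, while 7.88% of all genes rose and 8.36% fell. C1qa and C1qb were at most 1.86 CPM there. The mean of C1qa in CD71+ libraries was 2.47-fold the limit of 3 counts per CD71- library. Counting error of the CD71+ counts is not in this value. With only the 4 culture libraries in the fit, C1qa did not reach the count filter and was not tested. Slc7a11, the cystine transporter gene, rose by 1.45 and Ctsd, the lysosomal protease gene, by 1.03, although Ctsd shares 34.37% of its exon bases with Gm49369 on the same strand and its call was lost without culture CD71+ replicate 1 (adjusted p = 0.0856). Vav1, a signalling protein of blood cells, fell by 1.10 and Stat3 by 0.96, and all 11 such falls in culture were lost when scaled on mature neutrophil genes.

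Several named genes of these lists differed between tumour and culture in both sort fractions. Abca1, the cholesterol exporter, was higher in the tumour by 4.13 in CD71+ and by 5.33 in CD71- libraries, and Socs3, a suppressor of cytokine signalling, by 4.19 and 3.91. Pparg, a lipid-sensing nuclear receptor, was lower in the tumour at -3.21 in CD71+ and -3.88 in CD71- libraries, as was Scarb1, a scavenger receptor for phosphatidylserine and lipoproteins, at -1.95 and -3.42. Ggcx was lower in the tumour too, at -1.23 and -3.06. These 5 genes passed in both comparisons (adjusted p at most 0.00203) and under each of the 4 scalings. Over all genes 57.9% passed in CD71+ and 67.1% in CD71- libraries, in either direction. Other genes named in both comparisons did not all keep their calls. In CD71+ libraries scaled on mature neutrophil genes, Elmo1 (0.30, adjusted p = 0.172) and Rab7 (0.39, adjusted p = 0.0773) no longer passed.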

How the data were processed

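RNA-seq was deposited as 1 table of whole-number read counts per gene for 8 libraries, 2 in each of 4 groups, taken from the sample titles. A Zymo Quick-RNA Microprep kit and, after removal of ribosomal RNA (Ribo-Zero Plus), a stranded total RNA kit from Illumina were used, per the labels' protocols. The build mm10 and the tools FastQC, STAR, cutadapt, featureCounts and DESeq2 are named, per the submitters' processing notes; their versions, order and strand setting are not given in the sources used here. Values in the deposited table are raw counts.

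The tests used edgeR 4.0.16 in R 4.3.3 (TMM, filterByExpr by group, 15975 genes kept, robust quasi-likelihood fit of 4 group means to all 8 libraries, 4 residual degrees of freedom) in 5 comparisons, with Benjamini-Hochberg adjustment over all tested genes and a threshold of 0.05. Standard errors are the log2 fold change divided by the square root of F. The scripts were tested on simulated data. CPM used TMM-scaled library sizes, and RPKM also the exon length of GENCODE M21, which held all 55450 gene IDs. A count of 0 allows up to 3 counts, 0.0915 to 0.419 CPM; intervals (95%) and this limit cover counting error only, and reads carried no molecular identifiers.

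The labels do not say whether samples came from separate animals or cultures, and the spread that a p-value measures here is that between these samples alone and may be technical. Replicate pairs were not identical and differed by more than counting noise (chi-square per degree of freedom 12.6 to 69.2). The text names the 10 genes, Tfrc, the 3 genes nearest in pattern to each TAM receptor, and, from 6 pathway lists, up to 2 rises and 2 falls with the largest change among genes that passed, had groups that did not overlap and a mean of 5 CPM or more. The members and lists were chosen with earlier results of these data known. Alternatives were DESeq2 size factors, total counts, scaling on 25 mature neutrophil genes, DESeq2 1.42.0's Wald test, no filter, at least 1 CPM in 4 libraries, only the 4 libraries compared, a replicate block and leaving out each library. Upstream sequences are RefSeq's, matched by symbol for all 10 genes. Further marker lists (dendritic, endothelial and stromal, glioma and neural, megakaryocyte) are given with the other observations.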

Additional observations from a re-analysis of the deposited data

Results flagged for a closer look

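For 5 genes the effect of CD71 differed between the tumour and culture by the test of the difference itself, each with the larger rise in the tumour. The difference in log2 fold change was 3.28 for Gas6, 3.11 for Pros1, 1.88 for Mfge8, 1.72 for Stab1 and 1.70 for Lrp1 (adjusted p = 0.00424, 0.0398, 0.0259, 0.0018 and 0.0277 by edgeR's quasi-likelihood test). Those of Gas6 and Stab1 passed without each library in turn, and those of Pros1, Mfge8 and Lrp1 did not.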

How the results depend on the processing

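Of 702 values of single genes under the alternatives, 623 kept their direction and side of the threshold, 47 fell short of it, 19 newly passed and 13 reversed. Reversed values were those of Itgav in the tumour (-0.01 with DESeq2 size factors and by DESeq2's Wald test), in the difference of the CD71 effects (0.13 with total counts, 0.07 without culture CD71- replicate 2), in tumour against culture within CD71- (-0.09 with total counts, -0.99 scaled on mature neutrophil genes) and within CD71+ (-1.14 scaled on mature neutrophil genes). Lrp1 was at -0.93 in the last, and at -0.25 in culture without culture CD71- replicate 1. Pros1 in culture was at -0.33 without culture CD71+ replicate 1, and the difference was -0.18 for Mertk and -1.90 for Tyro3 without culture CD71- replicate 1 and -0.02 for Tyro3 without tumour CD71- replicate 1. Over all leave-outs these results ranged from -0.25 to 0.46 for Lrp1 and -0.33 to 1.36 for Pros1 in culture, and for the difference from -0.18 to 1.21 for Mertk, -1.90 to 1.16 for Tyro3 and -0.40 to 0.07 for Itgav. The cause was not tested.

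Leaving out each library, the number of genes called ranged from 7 to 8 in the tumour, 2 to 4 in culture, 2 to 4 for the difference, 7 to 8 for tumour against culture in CD71- and 5 to 9 in CD71+. In culture it was 5 with total counts and 8 scaled on mature neutrophil genes, against 3 with TMM. Relative to TMM, the shift in the median of all genes was -0.22, 0.56 and 1.05 in the tumour with DESeq2 size factors, total counts and mature neutrophil genes, -0.05, 0.31 and 1.07 in culture, 0.25, -0.93 and -1.83 for tumour against culture in CD71- and 0.07, -0.67 and -1.85 in CD71+. The share of tumour calls that were higher was 47.3%, 93.3% and 99.7% under these. Tyro3 was not tested under the stricter filter, and the difference could not be fitted on 4 libraries.

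Groups share replicate numbers, but nothing says that these mark shared animals or days. The deviations of same-numbered libraries correlated at 0.254 between the tumour fractions, 0.073 between the culture fractions and -0.312 to -0.148 across origins, which does not show a pairing of all groups, and the labels do not say whether the 2 fractions of a tumour replicate share an animal. With a replicate block 8 genes were called in the tumour, 3 in culture, 3 for the difference (without Pros1 and Lrp1, adjusted p = 0.0531 and 0.0538), 7 for tumour against culture in CD71- and 8 in CD71+ (without Lrp1, adjusted p = 0.0502). Precision is limited by 2 libraries per group and by low counts. Tyro3 and Timd4 had 21 or fewer counts in every library. The same held for Gas6 and Pros1 in culture, Axl in culture CD71- and Mfge8 in tumour CD71- libraries.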

Other observations

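Markers of further cell types were measured beside the comparison of tumour CD71+ with tumour CD71- libraries, in which 26.2% of all genes rose and 17.3% fell. In tumour CD71+ against tumour CD71- libraries, 6 of 9 tested glioma and neural genes rose and none fell (median 1.77), and their summed level was 137 to 218 CPM in CD71+ and 143 to 154 CPM in CD71- libraries. Of 8 tested dendritic cell genes 5 rose and 1 fell (median 2.13), with sums of 314 to 396 CPM in CD71+ and 308 to 550 CPM in CD71- libraries. Of 7 tested endothelial and stromal genes 4 rose and 1 fell (median 1.96), with sums of 177 to 247 CPM in CD71+ and 150 to 194 CPM in CD71- libraries. These sums were led by genes that did not rise. In CD71+ and CD71- libraries Mbp averaged 94.4 and 116 CPM, Itgax 245 and 415 CPM and Pecam1 77.9 and 123 CPM. Of 6 tested megakaryocyte and platelet genes 2 rose and 2 fell, with sums of 15.2 to 28.2 CPM in CD71+ and 15.4 to 17.3 CPM in CD71- libraries. In culture, 8 of the 14 glioma and neural genes had no counts in CD71+ libraries and 10 had none in CD71- libraries. Of the 25 mature neutrophil genes, 17 fell and 1 rose in tumour CD71+ libraries, and 12 fell and 1 rose in culture CD71+ libraries. Over all genes 7.88% rose and 8.36% fell in culture.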
